A study of Mus musculus with 15 samples.

Results

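The mitochondrial carrier family is a group of membrane transporters, most of which move metabolites, nucleotides and cofactors across the inner mitochondrial membrane. Members were taken as the genes whose symbol starts with Slc25a, together with Ucp2, Ucp3, Mtch1, Mtch2, Mpc1 and Mpc2, with a mean of at least 0.5 CPM (counts scaled to library size) over the 15 libraries. Of 53 such genes in the table, 49 met the threshold, out of 24419 genes in all, and all 49 passed the filter on low counts. Just inside it were Slc25a48 at 0.504 CPM and Slc25a43 at 0.753 CPM, and just outside it Slc25a41 at 0.235 CPM and Slc25a31 at 0.175 CPM. Slc25a2 (0.159 CPM) and Slc25a54 (0.127 CPM) were the other genes left out. Mpc1 and Mpc2 belong to a separate protein family and were included because they form the pyruvate carrier of the same membrane.

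RNA was sequenced from punches of the suprachiasmatic nuclei (SCN), the hypothalamic pacemaker of the circadian clock, of C57BL/6 mice aged 8 to 12 weeks. The groups were REV-ERBS DKO at circadian time (CT) 16 with 4 libraries, control at CT16 with 5 libraries, REV-ERBS DKO at CT4 with 3 libraries and control at CT4 with 3 libraries. Each library pooled 2 to 4 punches. DKO denotes the double knockout of the nuclear receptors REV-ERB alpha and REV-ERB beta, encoded by Nr1d1 and Nr1d2, which repress transcription of clock and metabolic genes. Sample titles mark the control libraries WT and the DKO libraries KO. The alleles, any Cre driver, the cells in which the genes were deleted and the genotype of the controls beyond those words are not stated in the labels.

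Carriers of this family share a fold built from repeated pairs of membrane-spanning helices and work mostly as exchangers, taking 1 substrate in as another leaves. They supply the matrix with ADP, phosphate, nucleotides and cofactors, return ATP, citrate and aspartate to the cytosol, and carry the shuttles that bring the reducing power of NADH into mitochondria. Pyruvate enters through the paired subunits MPC1 and MPC2. In brain, the aspartate/glutamate carrier Slc25a12 serves the malate-aspartate shuttle of neurons, and the glutamate carriers Slc25a18 and Slc25a22 link mitochondria to glutamate metabolism.

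Library totals ran from 32580803 to 68757624 counts. All 9 SCN markers had counts in every library, summing to 450 to 996 CPM. Counts of Nr1d1 at CT16 lay at 241 to 378 CPM in DKO libraries and 135 to 150 CPM in control libraries, a difference of 1.15 ± 0.12 on the log2 scale (edgeR quasi-likelihood, adjusted p = 6.93e-05), and at CT4 the difference was -0.02 ± 0.14. Nr1d2 was also higher in DKO, by 1.07 ± 0.07 at CT16 (adjusted p = 2.79e-07) and 0.47 ± 0.09 at CT4 (adjusted p = 0.0212). Neither gene was called lower in DKO at either time. These counts sum all exons, so a transcript that lacks only some exons still counts and the genotype labels are not checked by them. Summed myelin markers ranged from 3708 to 19135 CPM in CT16 DKO, 2782 to 9225 CPM in CT16 control, 5935 to 6668 CPM in CT4 DKO and 5171 to 7496 CPM in CT4 control. CT16 DKO replicate 4 held the highest of these. CT16 DKO replicates 3 and 4 and CT4 control replicate 1 stood apart in an earlier analysis of these libraries, and each count of members called is also given without these 3. A bulk sample cannot tell fewer cells of a type from less RNA per cell. Below, a difference is a log2 fold change ± standard error from 1 edgeR model over all libraries, and calls rest on p-values adjusted over 16910 genes (Benjamini-Hochberg), with a threshold of 0.05.

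The DNA just upstream of 3 members is shown because Slc25a34 and Mpc1 are the members called between genotypes and Slc25a33 is the member called higher at CT16 in control, as described below. Each line gives the 250 bases before the gene's start, 5′ to 3′ on the gene's strand, from RefSeq (GRCm38.p6), which had a window for 40 of the 49 members. Capitals mark a match to 1 of 4 motifs searched on both strands.
Slc25a34, chr4:141623835-141624084, minus strand: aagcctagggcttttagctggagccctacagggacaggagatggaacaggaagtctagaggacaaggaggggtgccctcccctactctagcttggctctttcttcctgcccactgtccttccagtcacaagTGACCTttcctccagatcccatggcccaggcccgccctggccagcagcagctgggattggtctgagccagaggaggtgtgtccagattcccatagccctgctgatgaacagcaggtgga
Mpc1, chr17:8283537-8283786, plus strand: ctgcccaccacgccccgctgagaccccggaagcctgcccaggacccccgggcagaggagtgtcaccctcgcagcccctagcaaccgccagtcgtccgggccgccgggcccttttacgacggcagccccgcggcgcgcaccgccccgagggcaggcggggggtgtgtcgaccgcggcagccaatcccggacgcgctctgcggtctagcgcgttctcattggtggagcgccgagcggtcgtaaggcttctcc
Slc25a33, chr4:149774268-149774517, minus strand: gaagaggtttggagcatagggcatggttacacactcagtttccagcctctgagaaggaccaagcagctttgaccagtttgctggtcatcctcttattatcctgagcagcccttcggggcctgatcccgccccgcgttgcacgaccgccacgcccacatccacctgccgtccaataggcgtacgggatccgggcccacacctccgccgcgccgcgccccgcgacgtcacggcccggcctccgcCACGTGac
The window of Slc25a34 held TGACCT, the reverse complement of the core AGGTCA that REV-ERB and ROR receptors bind, starting 119 bases upstream. AGGTCA on either strand occurred in 4607 of all 32851 windows (15.8% of genes with a window), and 7 of the 40 members had it in some window. The window of Slc25a33 held the E-box CACGTG, the element bound by CLOCK and BMAL1, starting 8 bases upstream. CACGTG occurred in 6.02% of all windows and 6.86% of genes, and in 6 of the 40 members. The Mpc1 window shown held none of the 4 motifs. Neither did the windows of Slc25a16 and Slc25a18, the other called members, which are not printed. A second RefSeq window of Mpc1, chr17:8284204-8284453, which lies within the gene as annotated in mm10 and is not printed, held TGACCT starting 244 bases upstream of its own start, so Mpc1 is among the 7 members with AGGTCA. The other motifs were TTATGTAA, a D-box core, present in 0.977% of genes and in 0 members, and TGACGTCA, the cAMP response element, present in 1.77% of genes and in 2 members. No window shown held more than 1 motif match. These are letter matches in a fixed window and say nothing of binding.

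Before any comparison, the levels show which carriers the tissue holds most of. Per kilobase of exon, Slc25a4, the main ADP/ATP carrier of excitable tissues, had the highest mean level at 472 CPM per kilobase. Next came Mtch1, an outer membrane member, at 242 CPM per kilobase, the phosphate carrier Slc25a3 at 187 and the second ADP/ATP carrier Slc25a5 at 118. These 4 genes held 50.3% to 53.1% of the members' summed CPM per kilobase in each library. Slc25a48, a choline carrier in the inner membrane, was lowest at 0.336 CPM per kilobase, with 2 to 47 reads per library. The members together summed to 3450 to 3695 CPM in CT16 DKO, 3689 to 3864 CPM in CT16 control, 3630 to 3712 CPM in CT4 DKO and 3568 to 3659 CPM in CT4 control. The lowest of these sums was that of CT16 DKO replicate 4, the library with the most myelin marker counts, and the part of myelin in it was not tested.

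**Figure D1:**
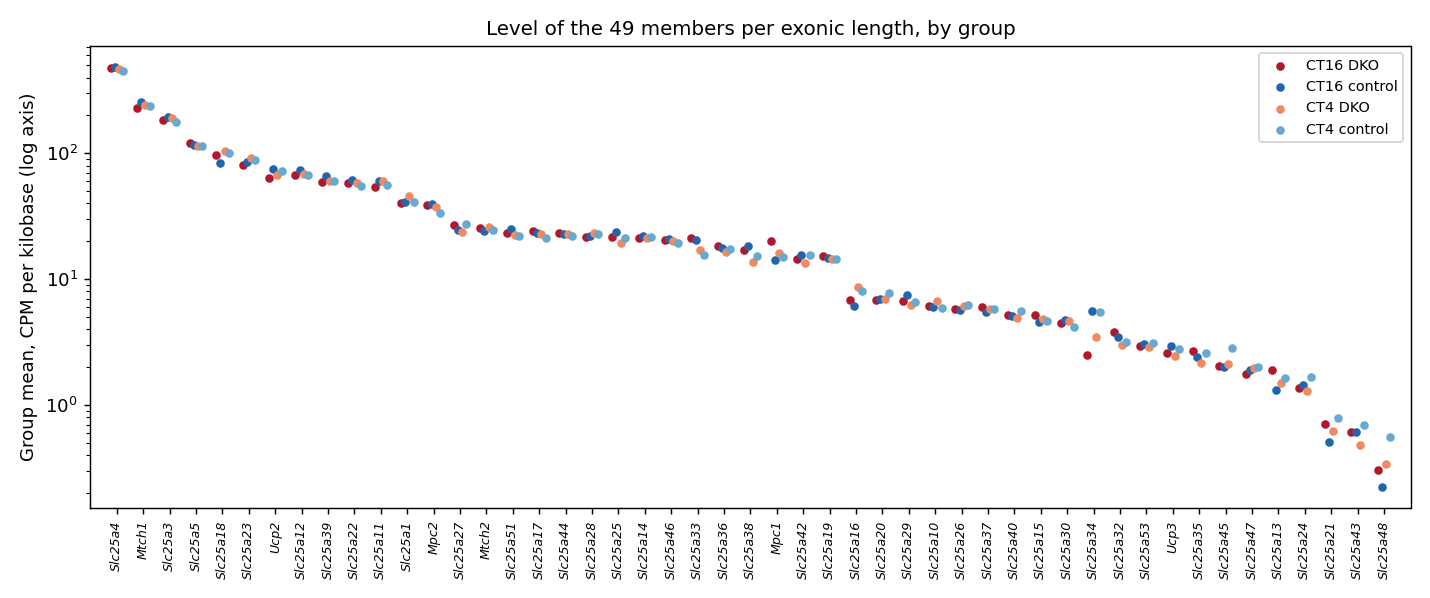
Group mean of each of the 49 members in CPM per kilobase of exon (log axis), a point per group. Means over all libraries span from 0.336 CPM per kilobase for Slc25a48 to 472 CPM per kilobase for Slc25a4, and for most members the 4 group means lie close together.

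Most members varied little. In 31 of 49 the highest library was under 1.5 times the lowest, in 7 it was over 2 times, and the median ratio was 1.38. The median standard deviation within groups was 0.0995 on the log2 scale, lowest for Slc25a4 at 0.0398 and highest for Slc25a48 at 0.984. Slc25a34 had a ratio of 4.57 between its highest and lowest library, and Slc25a48, with 2 to 47 reads, a ratio of 23.7. The lowest library of Slc25a48 was CT16 control replicate 4 and the highest CT4 control replicate 2, and its time difference in control, -1.33 ± 0.60, was not called (adjusted p = 0.227).

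The comparison of DKO with control at CT16 asked which carriers depended on genotype in the subjective night. Slc25a34 was lower and Mpc1 higher in DKO, and these were the only members called. Of 49 members, 1 was called higher, beside 2.83% of all tested genes, and 1 lower, beside 1.83%. Together these were 4.08% of members, where 4.66% of all genes were called, so the share of members called was near the background. The same 2 members were those without overlap between the groups, beside 6.97% of all genes (4.03% higher and 2.94% lower). Unadjusted p was under 0.05 for 11 members, or 22.4%, 5 higher and 6 lower, beside 20.0% of all genes. The median difference was -0.03 over members and 0.00 over all genes. Without the 3 libraries that stood apart the same 2 members were called, beside 419 of 16967 genes. Leaving out CT16 DKO replicate 1, CT16 DKO replicate 3 or CT16 control replicate 2 gave 5, 4 and 5 members called. Slc25a34 and Mpc1 were among them each time. Over all genes those fits called 1318, 976 and 1048, in that order, against 788 with all libraries.

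Slc25a34 encodes a carrier whose substrate is not settled. In CT16 DKO libraries it had 5.56, 7.53, 9.23 and 4.44 CPM, against 13.0, 11.7, 14.8, 20.3 and 15.1 CPM in CT16 control libraries. Every DKO library lay below every control library. Means were 6.69 ± 2.12 CPM in DKO (SD, n = 4) and 14.99 ± 3.27 CPM in control (SD, n = 5), and the gene fell by 1.16 ± 0.19 on the log2 scale (edgeR quasi-likelihood test, adjusted p = 0.00199), to 0.448 of the control level. At CT4 it had 9.80, 8.33 and 9.62 CPM in DKO libraries, against 14.4, 14.3 and 15.3 CPM in control libraries. Those groups did not overlap either, but the difference of -0.66 ± 0.23 was not called (adjusted p = 0.181), except when the CT4 libraries were fitted alone (adjusted p = 0.00307). The difference between the effects at the 2 times was -0.49 ± 0.29 and was not called (adjusted p = 0.439). Between CT16 and CT4, Slc25a34 differed by -0.46 ± 0.21 in DKO (adjusted p = 0.264, and 0.0486 without CT16 DKO replicate 3) and by 0.03 ± 0.20 in control (adjusted p = 0.945). The gene lies on chromosome 4 (141618825 to 141623834, minus strand, mm10).

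Mpc1 encodes the subunit that pairs with MPC2 to carry pyruvate into the matrix. It had 15.4, 21.1, 16.5 and 20.0 CPM in CT16 DKO libraries, against 13.2, 13.7, 11.7, 14.3 and 11.8 CPM in CT16 control libraries. The groups did not overlap, and 2 of the DKO libraries lay near 20 CPM. Mean levels were 18.3 ± 2.72 CPM in DKO (SD, n = 4) and 13.0 ± 1.15 CPM in control (SD, n = 5). Mpc1 thus rose 1.41-fold, or by 0.49 ± 0.09 (adjusted p = 0.00488 in edgeR). At CT4 the values were 13.9, 15.1 and 15.4 CPM in DKO libraries and 14.1, 13.2 and 13.4 CPM in control libraries, which overlapped. That difference was 0.12 ± 0.12 (adjusted p = 0.672), and the effect at CT16 exceeded it by 0.37 ± 0.15, which was not called (adjusted p = 0.255). Mpc1 lies on chromosome 17 (8283813 to 8297661, plus strand, mm10). It shares 106 exonic bases with 4930506C21Rik on the opposite strand, whose difference at CT16 was 0.50 ± 0.15 (adjusted p = 0.0644). That gene had 4.80, 6.99, 5.23 and 6.74 CPM in CT16 DKO libraries and 3.63, 4.89, 4.63, 3.44 and 4.35 CPM in CT16 control libraries. The strand setting of the counting is not given in the sources used here, so reads over the shared bases cannot be assigned, and their part in the Mpc1 difference was not tested.

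Mpc2, the partner subunit, did not pass the test in any comparison. It had 29.1, 36.0, 38.8 and 30.0 CPM in CT16 DKO libraries, against 33.9, 35.4, 37.4, 32.0 and 31.7 CPM in CT16 control libraries, a difference of -0.03 ± 0.08. Per kilobase, Mpc2 was 2.00, 1.81, 2.49 and 1.60 times Mpc1 in CT16 DKO libraries and 2.72, 2.75, 3.39, 2.38 and 2.85 times Mpc1 in CT16 control libraries. At CT4 this ratio of levels was 2.54, 2.13 and 2.22 in DKO libraries and 2.06, 2.19 and 2.51 in control libraries. The ratio thus ran lower in CT16 DKO than in CT16 control with 1 pair of libraries crossing, and the CT4 groups overlapped.

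Tissue markers also differed between these groups. At CT16, all 8 myelin markers were above 0, with a median difference of 0.77, and 10 of 12 markers of neighbouring hypothalamic nuclei were below 0, with a median of -0.76, though none of either list was called. Of other cell types, the astrocyte markers Gja1 and Agt and the ependymal marker Tmem212 were called higher and the astrocyte marker Aldh1l1 lower, and no microglial or endothelial marker was called. Beyond the covariate fits for myelin and neighbouring nuclei given below, the part of these markers in the member values was not tested. Neighbouring markers summed to 452 to 785 CPM in CT16 DKO and 758 to 1108 CPM in CT16 control. With the myelin score as a covariate, Slc25a34 differed by -0.97 (adjusted p = 0.00203) and Mpc1 by 0.40 (adjusted p = 0.0109). With the score of neighbouring nuclei, the differences were -1.09 (adjusted p = 0.00447) for Slc25a34 and 0.44 (adjusted p = 0.0124) for Mpc1. Both calls held under all 25 alternatives. The adjusted p then ranged from 2.76e-08 to 0.0284 for Slc25a34 and from 7.1e-05 to 0.0378 for Mpc1.

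**Figure D2:**
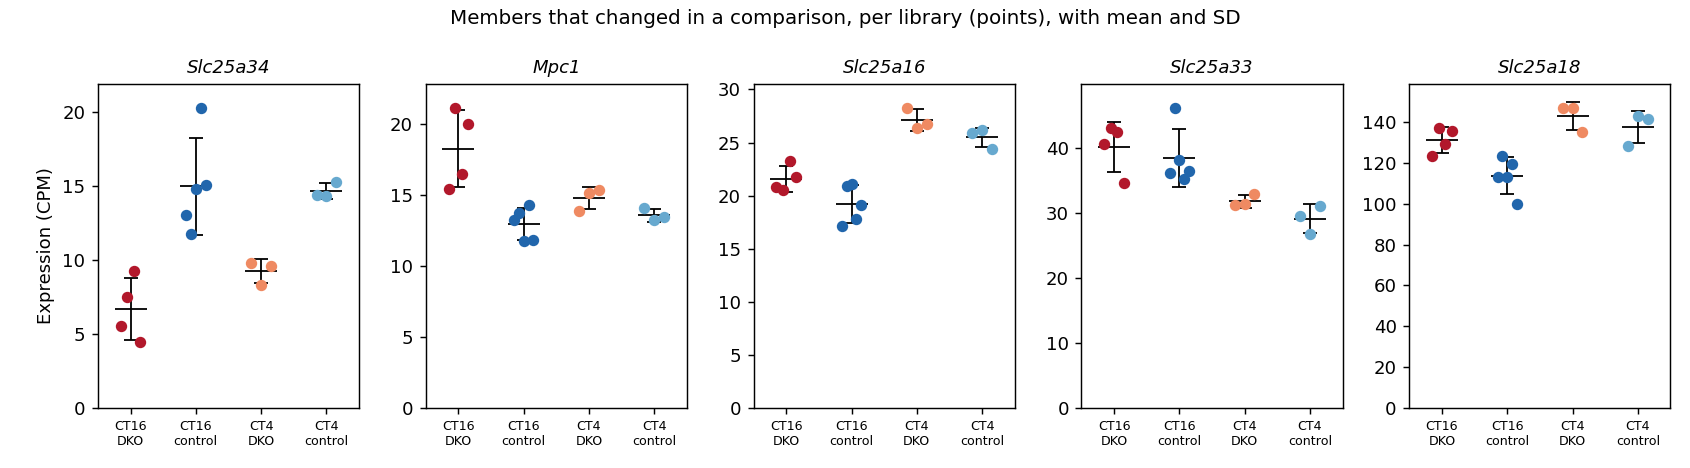
CPM of the 5 members called in any comparison, a point per library, with group mean and SD (4 CT16 DKO, 5 CT16 control, 3 CT4 DKO and 3 CT4 control libraries). Slc25a34 in CT16 DKO lies at 4.44 to 9.23 CPM, below all control libraries, and Slc25a16 is higher at CT4 than at CT16 in both genotypes.

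At CT4, DKO against control, 0 of 49 members were called by edgeR, beside 1.28% of all genes (0.574% higher and 0.710% lower). DESeq2 called 0 members as well, beside 591 of 20799 genes. Unadjusted p was under 0.05 for 5 members, 1 higher and 4 lower, or 10.2% beside 14.8% of all genes. The groups of 3 did not overlap in 13 members, 5 higher and 8 lower, or 26.5%, where 25.4% of all genes did not overlap (12.1% higher and 13.3% lower). The median difference over members was 0.00, as it was over all genes. Without the 3 libraries that stood apart the count was again 0, beside 606 of 16967 genes. In this comparison 8 of 9 SCN markers were below 0, with a median of -1.46, and 11 of 12 markers of neighbouring nuclei above 0, with a median of 1.00. None of these was called. With the score of neighbouring nuclei as a covariate 0 members were again called, beside 34 of all genes. The part of the SCN markers was not tested.

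The smallest p at CT4 belonged to Slc25a1, the citrate carrier, which exports citrate to the cytosol for lipid synthesis. It had 75.9, 77.9 and 79.0 CPM in CT4 DKO libraries, against 72.8, 64.0 and 69.3 CPM in CT4 control libraries. The DKO libraries lay above the control libraries, by 0.18 ± 0.06, which did not pass the test (adjusted p = 0.164). At CT16 it had 65.9, 66.4, 65.7 and 73.0 CPM in DKO libraries and 69.1, 70.2, 64.7, 69.4 and 71.6 CPM in control libraries, which overlapped. Slc25a34, described above, had the next smallest p.

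**Figure D3:**
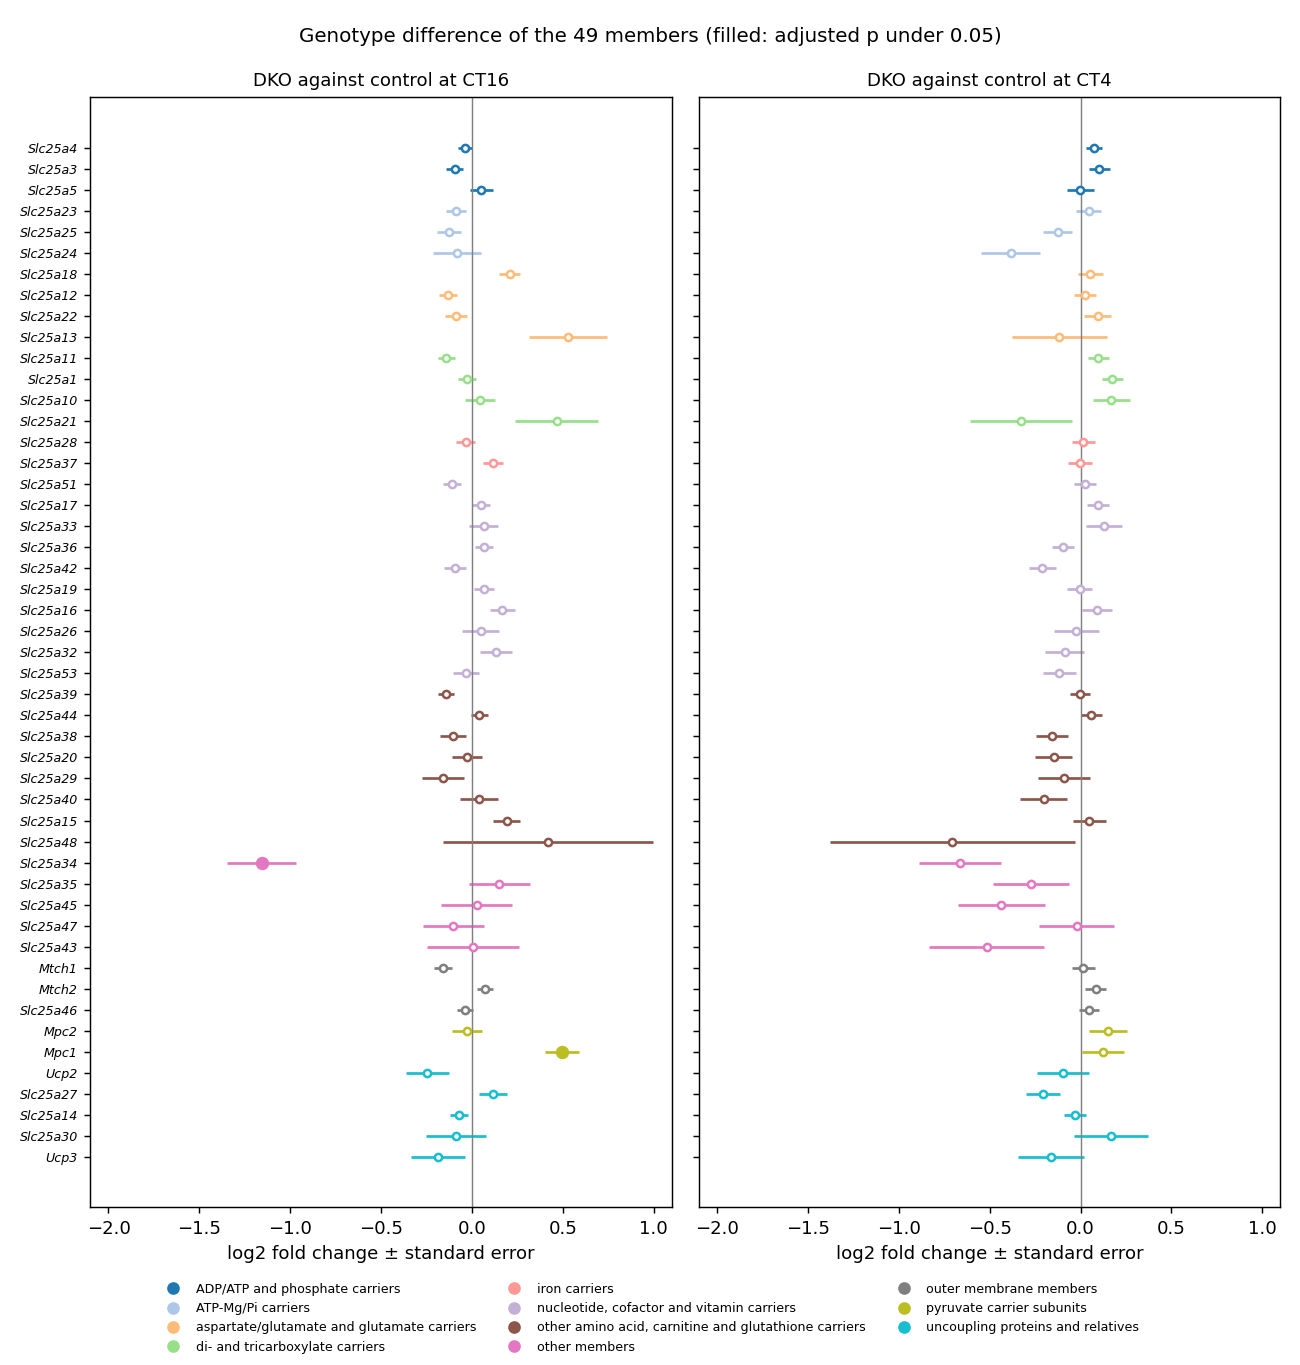
Log2 fold change of DKO over control for the 49 members, CT16 on the left and CT4 on the right, with standard errors as bars and called members filled. At CT16 Slc25a34 at -1.16 and Mpc1 at 0.49 are called, and at CT4 no member is.

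The comparison of CT16 with CT4 asked which carriers differed between subjective night and day in each genotype. In control, Slc25a33 was higher and Slc25a16 and Slc25a18 lower at CT16. Of 49 members, 1 was called higher, beside 2.13% of all genes, and 2 lower, beside 2.08%. Together these were 6.12% of members and 4.21% of all genes. Unadjusted p was under 0.05 for 17 members, or 34.7%, 12 higher and 5 lower, beside 19.9% of all genes. The libraries of the 2 times did not overlap in 13 members, 9 higher and 4 lower at CT16, or 26.5% beside 15.8% (7.99% higher and 7.80% lower). The median difference over members was 0.01, and over all genes -0.01. In DKO, only Slc25a16 was called, lower at CT16, which is 2.04% of members beside 1.80% of all genes (1.29% higher and 0.509% lower). There, 11 members, or 22.4%, had an unadjusted p under 0.05, beside 18.6% of all genes, and the times did not overlap in 7 members, 4 higher and 3 lower at CT16, or 14.3%, beside 14.7% (8.32% higher and 6.38% lower). Without the 3 libraries that stood apart, 3 members were called in control, beside 609 of 16967 genes, and 4 in DKO, beside 1184. Leaving out single libraries moved the control count to between 1 (without CT4 control replicate 2) and 6 (without CT16 DKO replicate 4). All genes called there numbered 235 and 1057. In DKO the count moved to 0 without CT16 DKO replicate 1 or 2 or CT4 DKO replicate 1 or 3. It was also 0 without CT4 control replicate 1 or 3. The fits that called 0 members called 108 to 260 of all genes. The count was 2 without CT16 DKO replicate 3 (1461 of all genes) or CT16 control replicate 2 (347), and 3 without CT16 DKO replicate 4 (302). Without CT4 DKO replicate 2 the count was 1, but of the glycine carrier Slc25a38 in place of Slc25a16. Tissue markers differed between the times as well. In DKO, 8 of 9 SCN markers were above 0 with a median of 0.84 and 9 of 12 markers of neighbouring nuclei below 0 with a median of -0.95, none of them called. In control, 8 of 9 SCN markers were below 0 with a median of -0.42 and 1 called, and 9 of 12 markers of neighbouring nuclei above 0 with a median of 0.26 and 1 called. Of 8 myelin markers, 7 were above 0 in DKO with a median of 0.42 and 6 below 0 in control with a median of -0.33. None of the myelin markers was called for time. The microglial markers Cx3cr1 and P2ry12, of 5, and the endothelial marker Cldn5, of 4, were called lower at CT16 in both genotypes, and endothelial Ly6c1 was called higher in control. The part of these markers in the member values was not tested beyond the covariate fits for myelin and neighbouring nuclei.

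Slc25a16, linked to the supply of coenzyme A to the matrix by work on its yeast relative, was lower at CT16 in both genotypes. In DKO it had 20.8, 20.5, 23.2 and 21.8 CPM at CT16, against 28.3, 26.3 and 26.8 CPM at CT4. In control it had 17.1, 20.9, 21.1, 17.7 and 19.1 CPM at CT16, against 25.9, 26.2 and 24.4 CPM at CT4. In neither genotype did the times overlap. The gene fell by 0.41 ± 0.07 in control (edgeR quasi-likelihood test, adjusted p = 0.00613) and by 0.33 ± 0.08 in DKO (adjusted p = 0.0391). The 2 differences were themselves 0.08 ± 0.11 apart (adjusted p = 0.749). The call in control held under all 25 alternatives, with adjusted p from 4.98e-05 to 0.0395, while that in DKO was lost in 11 of 25. Those were the fit on the compared groups alone (adjusted p = 0.107), the replicate block (0.121), the covariate of neighbouring nuclei (0.496) and 8 single libraries left out. The adjusted p was 0.0872, 0.134 and 0.0559 without CT16 DKO replicates 1, 2 and 4, and 0.128, 0.108 and 0.112 without CT4 DKO replicates 1, 2 and 3. It was 0.0503 and 0.0556 without CT4 control replicates 1 and 3. Markers of neighbouring nuclei summed to 452 to 785 CPM in CT16 DKO and 832 to 944 CPM in CT4 DKO. Slc25a16 lies on chromosome 10 (62920633 to 62946494, plus strand, mm10).

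Slc25a33, a carrier of pyrimidine nucleotides needed for mitochondrial DNA and RNA synthesis, was higher at CT16. In control it had 36.1, 46.2, 38.1, 35.2 and 36.5 CPM at CT16, against 29.6, 26.8 and 31.1 CPM at CT4, with no overlap. It rose by 0.40 ± 0.09 in control (adjusted p = 0.0204 in edgeR), a call lost without CT4 control replicate 1 (adjusted p = 0.0671) or 2 (adjusted p = 0.111). In DKO it had 40.6, 43.1, 42.5 and 34.6 CPM at CT16, against 31.2, 31.3 and 32.97 CPM at CT4. The DKO libraries did not overlap either, and the difference of 0.34 ± 0.09 missed the threshold (adjusted p = 0.0747). It passed without CT16 DKO replicate 4 (0.0254) or CT16 control replicate 2 (0.0292). The threshold was also passed in DESeq2, with the myelin covariate and without the 3 libraries that stood apart. The DKO and control time differences were -0.06 ± 0.13 apart (adjusted p = 0.838). Slc25a33 lies on chromosome 4 (149744036 to 149774267, minus strand, mm10).

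Slc25a18, a glutamate carrier known from astrocytes, was lower at CT16 in control. It had 113, 124, 113, 120 and 99.8 CPM in CT16 control libraries, against 129, 143 and 141 CPM in CT4 control libraries, with no overlap. It fell by 0.27 ± 0.06 (edgeR quasi-likelihood test, adjusted p = 0.0225), a call lost without CT16 control replicate 3 (adjusted p = 0.0503) or CT4 control replicate 2 (0.114) or 3 (0.101). In DKO it had 123, 137, 130 and 136 CPM at CT16 and 147, 147 and 135 CPM at CT4, which overlapped, with a difference of -0.12 ± 0.07 (adjusted p = 0.343). The time differences in the 2 genotypes were 0.15 ± 0.09 apart (adjusted p = 0.444). Between genotypes at CT16, Slc25a18 differed by 0.21 ± 0.06 and just missed the threshold (adjusted p = 0.0529). It passed in DESeq2, and in edgeR without CT16 DKO replicate 1 (0.0311) or CT16 control replicate 2 (0.0258). Astrocyte markers summed to 2918 to 3553 CPM in CT16 DKO, 2875 to 3718 CPM in CT16 control, 3219 to 3260 CPM in CT4 DKO and 3457 to 3610 CPM in CT4 control. Of the 7 astrocyte markers, 6 were below 0 for time in control, with a median of -0.20 and 0 called, and for genotype at CT16, 2 were called higher and 1 lower, with a median of 0.28. Their part in the Slc25a18 values was not tested. The gene lies on chromosome 6 (120773768 to 120793982, plus strand, mm10).

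**Figure D4:**
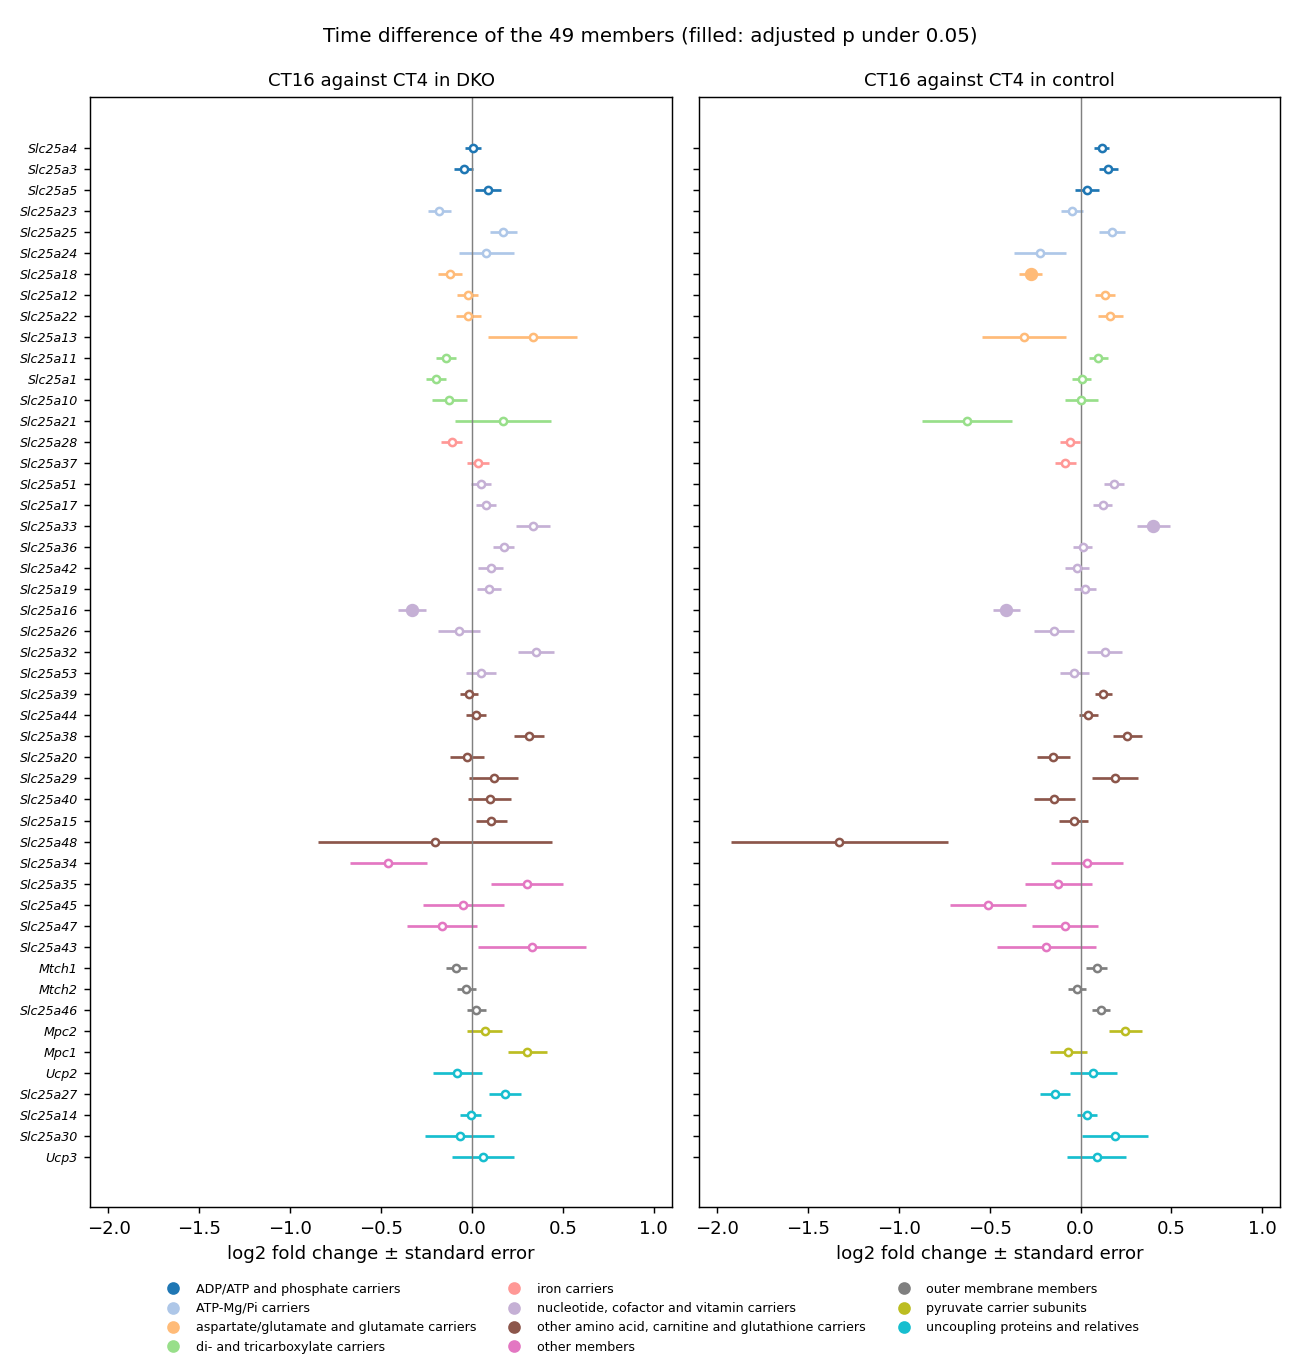
Log2 fold change of CT16 over CT4 for the 49 members, DKO on the left and control on the right, with standard errors as bars and called members filled. Slc25a16 is called lower in both genotypes, at -0.33 in DKO and -0.41 in control, and Slc25a33 (0.40) and Slc25a18 (-0.27) are called in control.

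The interaction asks whether the genotype difference itself changed between times. In edgeR it called 0 of 49 members, beside 0.0118% of all genes. In DESeq2 it called 0 of the 47 members with an adjusted p, beside 368 of 20799 genes. Unadjusted p was under 0.05 for 7 members, 3 above and 4 below 0, or 14.3% beside 15.1% of all genes. Without the 3 libraries that stood apart, 0 members and 423 of all genes were called, against 2 of all genes with them. The smallest p belonged to Slc25a11, the oxoglutarate/malate carrier of the malate-aspartate shuttle, at -0.24 ± 0.07 (adjusted p = 0.168). It had 105, 101, 108 and 90.8 CPM in CT16 DKO libraries, against 114, 107, 113, 110 and 113 CPM in CT16 control libraries. At CT4 it had 115, 113 and 107 CPM in DKO libraries, against 104, 105 and 104 CPM in control libraries. DKO libraries thus tended low at CT16 and lay above control at CT4. At CT16 the difference of -0.14 was not called, except without CT16 DKO replicate 3 (adjusted p = 0.0446). Slc25a1 was next at -0.20 ± 0.08 (adjusted p = 0.230). For CT16 against CT4 in DKO, Slc25a1 differed by -0.20 ± 0.05 without passing the test (adjusted p = 0.0747, and 0.0321 without CT16 DKO replicate 4). That difference also passed with upper quartile factors, in DESeq2, with the myelin covariate and without the 3 libraries that stood apart.

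No ADP/ATP or phosphate carrier was called with all libraries in edgeR. Slc25a4 had 527, 540, 522 and 504 CPM in CT16 DKO libraries, 528, 525, 558, 548 and 527 CPM in CT16 control libraries, 536, 527 and 503 CPM in CT4 DKO libraries and 485, 499 and 504 CPM in CT4 control libraries. Its genotype differences were -0.04 ± 0.04 at CT16 and 0.07 ± 0.05 at CT4. Slc25a5, the ADP/ATP carrier of dividing cells, had 159, 168, 152 and 151 CPM in CT16 DKO, 156, 153, 165, 158 and 128 CPM in CT16 control, 149, 155 and 142 CPM in CT4 DKO and 142, 154 and 149 CPM in CT4 control. The groups overlapped for both genes at CT16. Per kilobase, Slc25a4 was 3.76 to 4.81 times Slc25a5 across the 15 libraries. Slc25a3, the phosphate carrier, had 284, 282, 289 and 253 CPM in CT16 DKO, 284, 286, 319, 302 and 289 CPM in CT16 control, 287, 288 and 284 CPM in CT4 DKO and 268, 257 and 274 CPM in CT4 control. Slc25a4 was called in DESeq2 for time in control, where edgeR gave 0.12 ± 0.04 (adjusted p = 0.128). Slc25a3 differed by -0.09 ± 0.05 at CT16 and 0.10 ± 0.06 at CT4 between genotypes. For time in control Slc25a3 was at 0.15 ± 0.05 (adjusted p = 0.107, and 0.0457 without CT16 DKO replicate 4). The ATP-Mg/phosphate carriers Slc25a23, Slc25a24 and Slc25a25, which load the matrix with adenine nucleotides under control of calcium, differed by -0.13 to -0.08 at CT16 and -0.38 to 0.04 at CT4, with none called in any comparison.

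Among the amino acid carriers only Slc25a18 was called. Slc25a12, the aspartate/glutamate carrier of neurons, had 214, 201, 200 and 178 CPM in CT16 DKO, 213, 200, 221, 225 and 227 CPM in CT16 control, 206, 200 and 198 CPM in CT4 DKO and 202, 195 and 196 CPM in CT4 control. It differed between genotypes by -0.13 ± 0.05 at CT16 (adjusted p = 0.157) and by 0.03 ± 0.06 at CT4. Its close relative Slc25a13, the aspartate/glutamate carrier of liver, was scarce, and per kilobase Slc25a12 was 24.9 to 90.6 times as high. Slc25a13 had the highest fold change of the family at CT16 without passing the test, at 0.53 ± 0.21 (adjusted p = 0.175). The glutamate carrier Slc25a22 had 182, 151, 172 and 153 CPM in CT16 DKO, 166, 163, 175, 178 and 191 CPM in CT16 control, 167, 168 and 165 CPM in CT4 DKO and 165, 145 and 157 CPM in CT4 control. Per kilobase it stood at 0.485 to 0.919 of Slc25a18. The 8 carriers of other amino acids, carnitine, choline and glutathione had differences of -0.16 to 0.42 at CT16 and -0.71 to 0.06 at CT4. The highest at CT16 and the lowest at CT4 were both Slc25a48, with its few reads.

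Outer membrane members and uncoupling proteins also had no call. Mtch1, a paralogue of the outer membrane insertase MTCH2, had 469, 429, 456 and 396 CPM in CT16 DKO, 481, 447, 509, 506 and 500 CPM in CT16 control, 460, 474 and 461 CPM in CT4 DKO and 455, 452 and 472 CPM in CT4 control. Its difference at CT16 was -0.16 ± 0.05 (adjusted p = 0.0945), which passed in DESeq2, and in edgeR without CT16 DKO replicate 1 (0.0359) or CT16 control replicate 2 (0.0351). Ucp2, a relative of the uncoupling protein of brown fat that is present in hypothalamus and microglia, had 84.3, 91.5, 127 and 99.7 CPM in CT16 DKO and 107, 129, 110, 109 and 142 CPM in CT16 control. In CT4 DKO it had 101, 97.9 and 121 CPM, and in CT4 control 118, 118 and 105 CPM. The difference at CT16 was -0.25 ± 0.12 (adjusted p = 0.269), and it passed without CT16 DKO replicate 3 (0.0387), its highest DKO library. Microglial markers summed to 152 to 258 CPM in CT16 DKO and 158 to 181 CPM in CT16 control. The 5 uncoupling proteins and relatives, Ucp2, Ucp3, Slc25a14, Slc25a27 and Slc25a30, spanned -0.25 to 0.12 at CT16 and -0.21 to 0.17 at CT4. Slc25a34 and the 4 other members with no transport role assigned here, Slc25a35, Slc25a43, Slc25a45 and Slc25a47, were all below 0 at CT4, from -0.66 to -0.02, with none called. The mitoferrins Slc25a28 and Slc25a37, which import iron, differed by -0.03 and 0.11 at CT16 and by 0.02 and -0.00 at CT4.

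Of the 10 carriers of nucleotides, cofactors and vitamins, only Slc25a16 and Slc25a33 were called in any comparison, and the 10 spanned -0.11 to 0.17 at CT16 and -0.21 to 0.13 at CT4 between genotypes. The 4 di- and tricarboxylate carriers spanned -0.14 to 0.47 at CT16 and -0.33 to 0.18 at CT4. By share of the members' summed CPM per kilobase, the ADP/ATP and phosphate carriers held 37.9% to 40.5% over the 15 libraries, the outer membrane members 13.4% to 15.2% and the aspartate/glutamate and glutamate carriers 10.6% to 12%. The nucleotide, cofactor and vitamin carriers held 6.27% to 7.07%, and the pyruvate carrier subunits 2.42% to 3.29%. The ranges cover all 4 groups.

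Genes around the carriers were taken from fixed lists. Of 28 enzymes that use carrier substrates, 1 was called at CT16 between genotypes, higher, beside 2.83% of all genes. Idh2, the NADP-dependent isocitrate dehydrogenase of the matrix, averaged 88.7 ± 6.78 CPM in CT16 DKO (SD, n = 4) and 73.7 ± 1.505 CPM in CT16 control (SD, n = 5) and rose by 0.27 ± 0.05 (adjusted p = 0.00513 in edgeR). That call was lost without the 3 libraries that stood apart (adjusted p = 0.0584) and held under the other alternatives. At CT4, Idh2 lay at 73.0 to 82.9 CPM in DKO and 65.7 to 69.3 CPM in control. That difference of 0.20 ± 0.06 was not called (adjusted p = 0.145), nor was the interaction of 0.07 ± 0.08 (adjusted p = 0.689). Of 12 tested genes for import of carriers into the inner membrane, Tomm40, the pore of the outer membrane translocase, was called lower in CT16 DKO (1.83% of all genes were), at -0.20 ± 0.05 (adjusted p = 0.0463), a call lost in 18 of 25 alternatives. Slc8b1, the mitochondrial sodium/calcium exchanger, was the only called gene of 10 porin and uniporter genes, lower for time in control as were 2.08% of all genes. It averaged 10.4 ± 1.49 CPM in CT16 control (SD, n = 5) and 19.6 ± 0.859 CPM in CT4 control (SD, n = 3), and fell by 0.92 ± 0.12 (adjusted p = 0.000685), under every alternative. In DKO its means were 11.01 ± 1.95 CPM at CT16 and 14.5 ± 1.06 CPM at CT4, a difference of -0.40 ± 0.13 that was not called (adjusted p = 0.129). Its interaction of 0.52 ± 0.18 was not called either (adjusted p = 0.204). Mthfd2, an enzyme of mitochondrial folate metabolism, was the only one of the 28 enzymes called for time in DKO. It was higher at CT16, as were 1.29% of all genes, at 0.50 ± 0.12 (adjusted p = 0.0380), a call lost in 14 of 25 alternatives. For time in control Mthfd2 differed by 0.06 ± 0.11 (adjusted p = 0.790), and its interaction of 0.44 ± 0.16 was not called (adjusted p = 0.225). None of the 9 sideroflexins and mitochondrial ABC transporters was called in any comparison.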

How the data were processed

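RNA of SCN punches was measured in 15 libraries, with replicates as the labels name them. Pools are the replicates, and the labels do not say which mice entered a pool, so p-values measure spread between pools. The authors deposited whole-number read counts per gene, not normalized, with each gene's exonic length. Per the submitters' processing notes, STAR, featureCounts and DESeq2 were used with mm10. The tools' versions, the annotation and the strand setting are not stated there. All 15 count columns matched a library, and 0 columns were left unmapped.

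The analysis used edgeR 4.0.16 under R 4.3.3, after filterByExpr (16910 genes), TMM scaling and 1 model of 4 group means (11 residual degrees of freedom), with the robust quasi-likelihood test for 5 contrasts. A standard error is |log2 fold change| over the square root of F. Library sizes for CPM carried the TMM factors. The prior count was 2. Member CPM for the 0.5 threshold used column totals. Within groups, 22 library pairs differed by chi-square per degree of freedom of 6.571 to 123.7, so none was counted as a duplicate. Steps were tested on simulated counts. Per-library values are given for called members, for the 2 of smallest p where a comparison had none, for the 4 of highest level and for Slc25a4, Slc25a5, Slc25a3, Slc25a12, Slc25a22, Ucp2, Mpc1 and Mpc2. Members, lists and alternatives were chosen with earlier results of these data known. Upstream sequences are RefSeq's, and 4 members share exonic bases with an opposite-strand gene. Alternatives were DESeq2 1.42.0, upper quartile or RLE factors, no filter, a filter of 1 CPM in 3 libraries, a replicate block, a fit restricted to the compared groups, a score of myelin or neighbouring nuclei markers as covariate, and libraries left out. Figures used matplotlib 3.10.9.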

Additional observations from a re-analysis of the deposited data

Results flagged for a closer look

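Of 30 group values examined, 2 had a library far from the rest of its group, measured as the gap to the nearest library over the group's whole range, and chance gives about 1 in 20. For Slc25a33, CT16 control replicate 2 had 46.2 CPM, with the next library at 38.1 CPM and a gap of 0.74 of the range. For Slc25a1, CT16 DKO replicate 4 had 73.0 CPM, with the next library at 66.4 CPM and a gap of 0.898 of the range. That library also had the most myelin marker counts, whose part in the value was not tested.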

How the results depend on the processing

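There were 25 alternatives for each genotype or time comparison and 24 for the interaction, 15 of them leaving out 1 library. Of 1960 results of named members and pathway genes under an alternative, 1889 kept their call or lack of one, 49 lost the call and 22 gained it. Among results called in either fit 0 reversed, and the cause of the changes was not tested. Results called in neither fit count among the 1889, and their direction was not compared. Some of these changed sign, such as Mpc2 at CT16 between genotypes, which ran from -0.10 to 0.03. The alternatives for the pathway genes were chosen after their calls were seen. At CT16 between genotypes, DESeq2 called 2 members higher and 3 lower, against 1 and 1, beside 1284 of 20799 genes. At CT4, a fit on the compared groups alone called 2 lower, Slc25a27 and Slc25a34, and the myelin covariate 1, against 0. Those fits called 828 and 698 of all genes. For time in DKO, 2 members were called lower with upper quartile factors, DESeq2, the myelin covariate or without 3 libraries, and 0 with the compared groups alone or the covariate of neighbouring nuclei, against 1. There, 3 were called higher in DESeq2 and with the myelin covariate and 2 without 3 libraries, against 0. Over all genes, upper quartile factors called 272, DESeq2 879, the myelin covariate 1036 and the fit without 3 libraries 1184. The compared groups alone gave 47 and the covariate of neighbouring nuclei 78. For time in control, 4 were called higher in DESeq2, 3 with the compared groups alone and 2 with either covariate, against 1. All genes called there numbered 1318 in DESeq2, 889 with the compared groups alone, 909 with the myelin covariate and 863 with that of neighbouring nuclei. Leaving out single libraries gave 1 to 3 members called higher and 1 to 3 lower at CT16 between genotypes. It gave 0 to 2 and 0 to 2 for time in DKO, 0 to 3 and 1 to 3 for time in control, and 0 in the other comparisons. Over all genes these single-library fits called 380 to 1318 at CT16 between genotypes, 103 to 1461 for time in DKO and 235 to 1057 for time in control. Over every alternative, counts over all genes ranged from 368 to 1318 at CT16, 16 to 828 at CT4 and 47 to 1461 for time in DKO. They ranged from 235 to 1318 for time in control and 1 to 423 for the interaction. The main counts, in that order, were 788, 217, 304, 712 and 2. The member median of the interaction, -0.01, was 0.03 with the myelin covariate and 0.03 without 3 libraries, and leaving out single libraries gave -0.03 to 0.05, highest without CT16 DKO replicate 4.

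With the replicate number as a block, members called lower for time in DKO numbered 0 against 1, and 503, 104, 159, 379 and 1 genes were called at CT16, at CT4, for time in DKO, for time in control and for the interaction. Same-numbered libraries did not deviate together (r from -0.184 to 0.138 over 13 pairs), so no pairing by number was seen. With few libraries per group, this check cannot exclude a pairing of small effect.

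Groups of 3 to 5 libraries and few reads limit the low members, above all Slc25a48.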

Other observations

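Exonic bases shared with an opposite-strand gene were found in 3 members beside Mpc1, namely Slc25a25 with Naif1 (404 bases), Slc25a26 with Lrig1 (124 bases) and Slc25a35 with Rangrf (32 bases). None of these 3 members was called with all libraries. Lrig1, a negative regulator of growth factor receptors, fell by 0.35 ± 0.06 at CT16 relative to CT4 in control (edgeR quasi-likelihood test, adjusted p = 0.00505), and Slc25a26, the S-adenosylmethionine carrier, was at -0.15 there (adjusted p = 0.50).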
